A study of Mus musculus with 16 samples.

Results

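Integrins that keratinocytes carry outside hemidesmosomes were followed in newborn mouse epidermis through 8 genes, Itga2, Itga3, Itga9, Itgav, Itgb1, Itgb5, Itgb6 and Itgb8. The genes were chosen by name from the 24981 genes listed in each of 2 deposited expression tables, and all 8 were found in both. RNA was sequenced from 16 libraries of skin epidermis of neonates (p0 to p2), separated on a Percoll gradient into a suprabasal and a basal fraction. Values are RPKM, reads scaled by the length of the gene and by the mapped reads of the library, a level per length that can be compared between genes within a table. Mice of the Fvb/N strain, wild type for Dlx3, gave 4 suprabasal and 4 basal libraries. In the other table, Dlx3 knockout (KO) mice gave 2 suprabasal and 2 basal libraries. Dlx3 wild-type (WT) mice gave the same numbers, and both genotypes were of mixed CD-1 and C57BL/6 strain. The series describes the animals as Dlx3 transgenic, and how and in which cells the KO allele was made is not given in the sources used here. Whether libraries of a group come from separate or pooled animals is not given either, so p-values measure the spread between libraries, which may be technical. The tables were normalized apart, and levels are compared within a table only.

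Integrins are receptors made of an alpha and a beta subunit that span the cell membrane, bind matrix outside the cell and connect through talin and kindlin to the actin cytoskeleton inside it. Basal keratinocytes stand on the basement membrane and use them to adhere, to migrate and to read the matrix, and their integrins are reduced as cells leave that layer. Hemidesmosomes are built on another integrin, of the subunits Itga6 and Itgb4, which is tied to keratin filaments.

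Itga3 (chr11:95044474-95076801, minus strand, mm10) encodes the alpha chain of the laminin-332 receptor, alpha3beta1. Itga2 (chr13:114833081-114932100, minus strand) encodes that of a collagen receptor, alpha2beta1. Itga9 (chr9:118606690-118901003, plus strand) encodes that of a receptor for tenascin-C and fibronectin's extra domain A. Itgb1 (chr8:128685654-128733200, plus strand) is the beta chain of all 3 receptors. Itgav (chr2:83724397-83806916, plus strand) encodes the alpha chain shared by the remaining subunits and also pairs with Itgb1. Itgb5 (chr16:33829665-33949338, plus strand) forms a vitronectin receptor with it. Itgb6 (chr2:60598292-60722643, minus strand) and Itgb8 (chr12:119158022-119238802, minus strand) form receptors that bind latent TGF-beta and release its active form. All 8 are protein-coding genes of the GENCODE M21 annotation.

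The promoters of the 3 genes with the most RNA are shown because Itga3 and Itgb1 fell together in suprabasal cells while Itgb5 did not. Each runs from 250 bases before to 50 bases after a RefSeq start (GRCm38.p6, the mm10 assembly), 5′ to 3′ on the gene's strand. Capitals mark GGGCGG, the GC box bound by Sp factors, or its reverse complement.
Itgb5 (chr16:33829415-33829714): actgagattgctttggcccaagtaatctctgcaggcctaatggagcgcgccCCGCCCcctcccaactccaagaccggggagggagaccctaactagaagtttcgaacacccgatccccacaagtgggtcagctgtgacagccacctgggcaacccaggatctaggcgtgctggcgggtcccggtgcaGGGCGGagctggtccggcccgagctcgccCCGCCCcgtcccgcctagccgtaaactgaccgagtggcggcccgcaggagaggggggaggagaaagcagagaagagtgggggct
Itgb1 (chr8:128685404-128685703): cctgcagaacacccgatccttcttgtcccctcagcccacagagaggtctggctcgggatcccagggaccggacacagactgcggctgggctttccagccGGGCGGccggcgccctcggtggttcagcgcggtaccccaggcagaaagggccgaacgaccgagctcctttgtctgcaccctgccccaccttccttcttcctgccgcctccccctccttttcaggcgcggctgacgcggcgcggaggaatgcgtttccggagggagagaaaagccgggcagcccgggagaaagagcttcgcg
Itga3 (chr11:95076665-95076964): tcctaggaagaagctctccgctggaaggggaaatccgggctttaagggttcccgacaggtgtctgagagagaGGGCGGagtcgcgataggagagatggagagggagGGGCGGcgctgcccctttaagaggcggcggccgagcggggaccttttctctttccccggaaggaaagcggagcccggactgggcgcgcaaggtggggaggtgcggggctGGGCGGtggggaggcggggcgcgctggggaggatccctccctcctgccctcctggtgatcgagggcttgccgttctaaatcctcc
The Itgb5 and Itga3 windows each held 3 GC boxes and the Itgb1 window held 1. The RefSeq table gave 10 such windows for the 8 genes, with 2 starts each for Itga3 and Itgb6. GGGCGG on either strand occurred in 6 of the 10 windows and in 35.7% of all 32851 windows of that length. TAATT, the core that Dlx and many other homeobox factors bind, occurred in 2 of the 10 windows, at Itgb8 and at the inner Itgb6 start, and in 27% of all windows. TGANTCA, which AP-1 factors bind, occurred in 2 of the 10, at an inner start of Itga9 and at the inner Itga3 start, and in 7.8% of all windows. TATAAA occurred in 0 of the 10 and in 13.6% of all. The motifs searched do not overlap one another in the 3 sequences shown. These matches describe letters in the windows and were not tested for binding.

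Depth was estimated as the read number at which low RPKM values of genes with 1 GENCODE M21 transcript most often gave whole reads. It was 45.4 to 61.3 M reads per library for Fvb/N and 33.7 to 42.0 M reads for the Dlx3 table. The estimate rests on that annotation, which may differ from the authors'. Paired Dlx3 libraries of a group had median differences per gene of 2.58% to 2.96%, and pairs of Fvb/N libraries within a group of 6.79% to 35.7%. The median chi-square of their reads was 1.34 to 2.12 times that expected from counting alone in the Dlx3 pairs and 6.80 to 244 times in the Fvb/N pairs. No libraries were merged. The Dlx3 pairs differed by little more than counting, so they may be technical repeats of a sample. If so, the p-values of the Dlx3 table, genotype and interaction included, do not measure the spread between animals, and no alternative fit addresses this. Fvb/N suprabasal library 3 stood apart: the summed level of 7 basal keratinocyte markers (Krt5, Krt14, Krt15, Col17a1, Itga6, Itgb4 and Trp63) was 4055 RPKM in it and 736 to 1458 RPKM in suprabasal libraries 1, 2 and 4, against 14258 to 17493 RPKM in basal libraries. Suprabasal libraries 3 and 4 listed 21583 and 21766 genes above 0 and the remaining Fvb/N libraries 18816 to 19194. The sum of 6 suprabasal markers (Krt1, Krt10, Krtdap, Dsc1, Ivl and Lor) was 43896 to 94163 RPKM in Fvb/N suprabasal libraries, against 34228 and 39132 RPKM in basal libraries 1 and 2 and 5442 and 6344 RPKM in basal libraries 3 and 4. All 7 basal markers were lower and all 6 suprabasal markers higher in the suprabasal fraction of Fvb/N, KO and WT, so the fraction labels match their markers. The 4 endothelial markers summed to at most 1.97 RPKM in any library. The sums were 0.592 to 10.2 RPKM for T cells, 1.37 to 3.01 RPKM for smooth muscle and 0.764 to 304 RPKM for red cells. Markers of other cells moved with the fractions of Fvb/N, where 60.6% of all genes tested were called lower and 13.4% higher. Melanocyte markers summed to 7.84 to 25.1 RPKM in suprabasal and 81.5 to 145 RPKM in basal libraries, with 4 of 4 lower. Langerhans and myeloid markers summed to 7.08 to 44.5 RPKM in suprabasal and 103 to 269 RPKM in basal libraries, with 4 of 4 lower. Inner root sheath markers summed to 111 to 194 RPKM in suprabasal and 3.44 to 5.27 RPKM in basal libraries, with 4 of 4 higher. Krt71, Krt25 and Krt27 passed the filter only through suprabasal libraries, which favours a rise. Fibroblast markers summed to 17.1 to 116 RPKM in suprabasal and 40.8 to 135 RPKM in basal libraries. Of 4 tested, 2 were higher and 1 lower. Col3a1 averaged 20.3 RPKM in suprabasal and 1.90 RPKM in basal libraries, and Dcn 7.62 and 67.4 RPKM. Markers of other cells also differed between Dlx3 fractions. Fibroblast sums were 60.7 and 62.5 RPKM in KO suprabasal against 121 and 127 RPKM in KO basal libraries. In WT the fibroblast sums were 44.6 and 45.9 RPKM against 135 and 138 RPKM. Col1a1 and Col3a1 went the other way in both genotypes. Red cell sums were 0.764 and 1.08 RPKM in KO suprabasal against 31.8 and 32.3 RPKM in KO basal libraries. In WT they were 0.818 and 1.10 RPKM against 68.4 and 75.6 RPKM. Melanocyte sums were 85.5 and 86.1 RPKM against 91.5 and 93.9 RPKM in KO, and 54.9 and 55.0 RPKM against 81.1 RPKM in WT. Langerhans and myeloid sums were 115 and 116 RPKM against 94.3 and 97.2 RPKM in KO. In WT these sums were 80.5 and 81.7 RPKM against 94.5 and 99.4 RPKM. Inner root sheath sums were 6.89 and 7.11 RPKM against 3.15 and 3.41 RPKM in KO. In WT those were 28.5 and 28.7 RPKM against 4.88 and 4.98 RPKM. The part of all these markers in the integrin changes between fractions was not tested. Dlx3 was at 2.16 to 2.64 RPKM in the 4 KO libraries, against 6.92 to 11.2 RPKM in the 4 WT libraries.

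**Figure D1:**
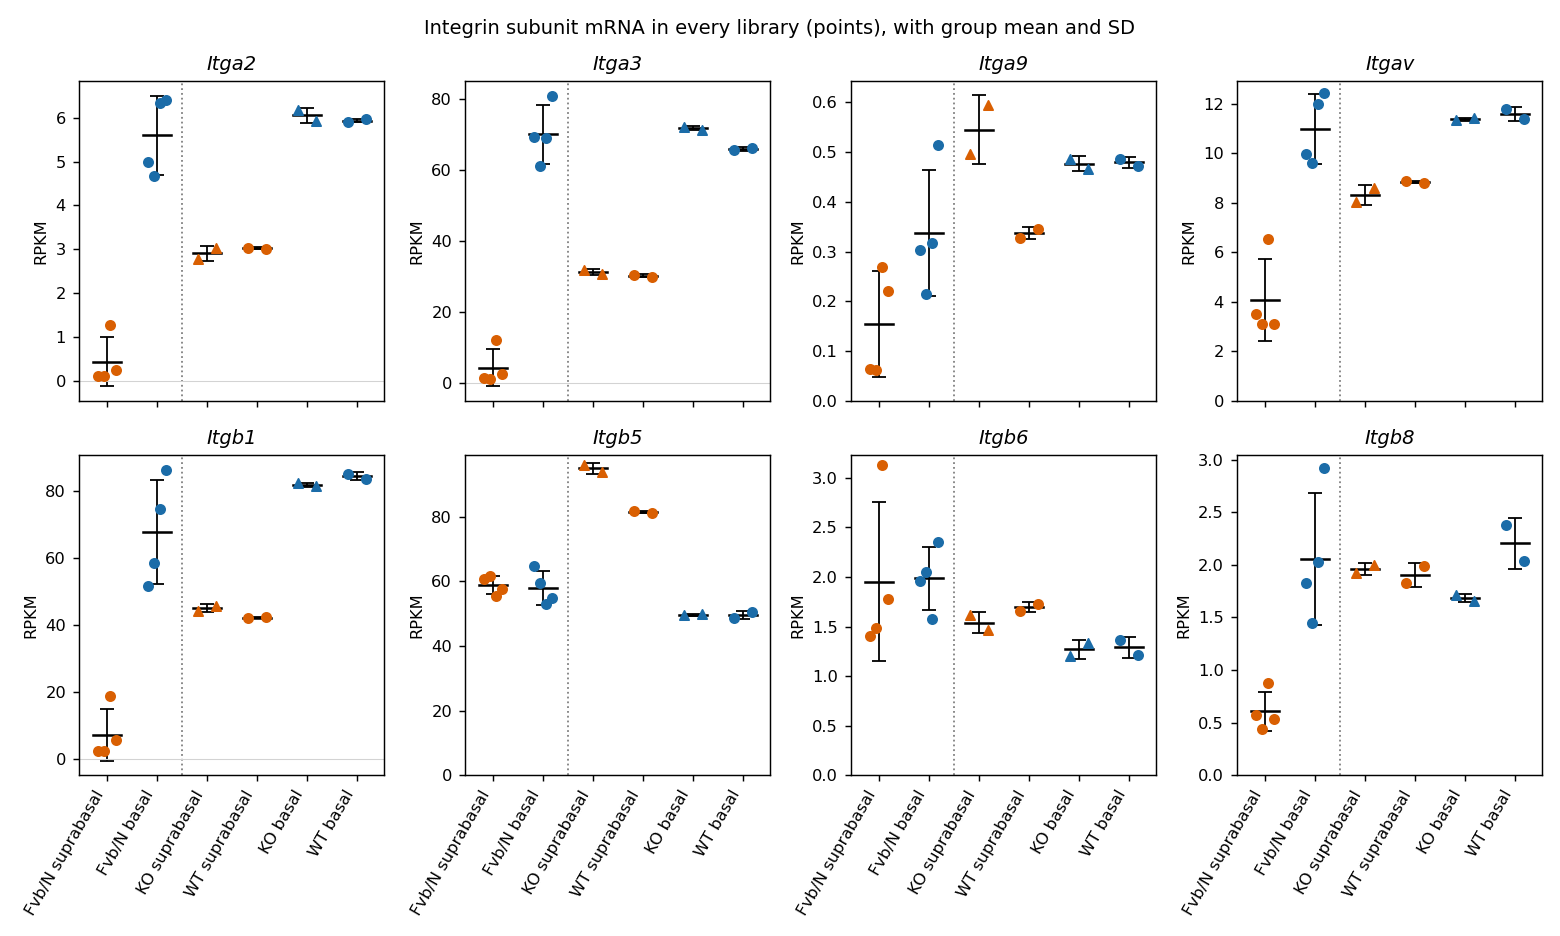
RPKM of each of the 8 genes (y axis, linear, a scale per gene) in every library of the 6 groups (x axis); points are libraries, orange for suprabasal and blue for basal, triangles for KO, and the black line and bar are the group mean and SD. Itga3 in Fvb/N sat between 1.06 and 12.1 RPKM in suprabasal libraries, under every basal library, and Itgb5 in the Dlx3 table sat between 81.3 and 96.1 RPKM in suprabasal libraries, above every basal library; the dotted line separates the 2 tables, whose levels are not comparable.

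Itga3, Itgb1, Itga2, Itgav and Itgb8 fell in Fvb/N suprabasal cells relative to basal cells, and Itgb5 and Itgb6 did not pass the test. The test was limma on log2(RPKM + 1), with Benjamini-Hochberg adjustment across the 11608 genes tested, and calls are made where the adjusted p is under 0.05. Of the 8 genes, 7 passed the filter of 1 RPKM in 4 libraries, and 5 of them were called, all lower. Over all genes tested, 73.9% were called, 60.6% lower and 13.4% higher, so a count of 5 lower stands near the background. The median log2 change was −1.28 over the 7 genes and −0.55 over all genes, and Itgb8 passed the filter only through its 4 basal libraries. In these bulk libraries, fewer cells of a type and less RNA per cell cannot be told apart.

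Itga3 was at 1.29, 1.06, 12.1 and 2.47 RPKM in Fvb/N suprabasal libraries 1 to 4, against 69.2, 60.9, 68.9 and 80.9 RPKM in basal libraries 1 to 4. The groups did not overlap, and suprabasal library 3 was the highest of its group. Itga3 fell by 4.21 log2 units (SE 0.508, limma adjusted p = 0.000126), or by 4.80 without suprabasal library 3. Only 0.0948% of the genes tested had a lower or equal change than Itga3.

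Itgb1, its beta chain, was at 2.11, 2.26, 18.6 and 5.69 RPKM in suprabasal libraries, against 51.6, 58.4, 74.5 and 86.3 RPKM in basal libraries. No suprabasal library reached the lowest basal one, and library 3 was again the highest. Itgb1 fell by 3.48 (SE 0.526, adjusted p = 0.000354), or by 4.04 without that library. The mean of Itgb1 over suprabasal libraries was 7.16 ± 7.79 RPKM (SD, n = 4), or 3.36 ± 2.02 RPKM (n = 3) without library 3. The mean of Itga3 was 4.23 ± 5.27 RPKM, or 1.61 ± 0.752 RPKM without it.

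Itga2 was at 0.106, 0.118, 1.27 and 0.245 RPKM in suprabasal libraries, against 4.98, 4.68, 6.34 and 6.41 RPKM in basal libraries. Its lowest value rests on about 35 reads, and the groups did not overlap. Of the suprabasal libraries only library 3 reached 1 RPKM, so the basal libraries alone carried Itga2 through the filter, which favours a fall. Without the filter the change was also −2.26 (limma adjusted p = 0.000547). Itga2 fell by 2.26 (SE 0.233, adjusted p = 7.87e-05); since 1 is added to each RPKM, the change of low genes is understated, and the authors' deposited table gives a suprabasal to basal ratio of 0.0676 for Itga2. The mean of Itga2 over suprabasal libraries was 0.435 ± 0.560 RPKM (SD, n = 4), or 0.156 ± 0.0771 RPKM (n = 3) without library 3.

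Itgav, the alpha chain of the vitronectin and TGF-beta binding receptors, was at 3.53, 3.12, 6.54 and 3.11 RPKM in suprabasal libraries, against 9.99, 9.60, 11.99 and 12.4 RPKM in basal libraries. Its fall of 1.28 (SE 0.205, adjusted p = 0.000473) was smaller in size than those of Itga3, Itgb1 and Itga2, and the groups did not overlap.

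Among the beta partners of Itgav, Itgb5 stood out by its level. It was at 60.8, 61.6, 55.6 and 57.8 RPKM in suprabasal libraries, against 64.7, 59.5, 53.0 and 54.9 RPKM in basal libraries. The groups overlapped throughout, and the log2 change was 0.03 (95% interval −0.22 to 0.27, adjusted p = 0.846). Most other genes had lower changes: 77.0% of those tested were at or under that of Itgb5. After rescaling each library by its median ratio, which moves the median change of all genes to −0.09, Itgb5 rose by 0.55 (adjusted p = 0.00741; range over its 18 alternatives 0.00741 to 0.995).

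Itgb6 was at 1.41 to 3.13 RPKM in suprabasal libraries, highest in library 3, against 1.58 to 2.36 RPKM in basal libraries. These groups overlapped, and the change was −0.05 (95% interval −0.46 to 0.36, adjusted p = 0.8293); its sign turned to 0.30 after rescaling and to a called 0.68 after quantile normalization. Itgb8 was at 0.573, 0.440, 0.875 and 0.537 RPKM in suprabasal libraries, against 1.83, 1.44, 2.03 and 2.92 RPKM in basal libraries. Those groups did not overlap, and Itgb8 fell by 0.91 (SE 0.158, adjusted p = 0.000722), a call that quantile normalization ends (−0.22, adjusted p = 0.176; range over its 14 alternatives 2.41e-05 to 0.176). Itga9 stayed under 1 RPKM in every library of both tables and was not tested; it was at 0.0615 to 0.269 RPKM in suprabasal libraries, against 0.215 to 0.514 RPKM in basal libraries, with overlap. About 23 to 112 reads lie behind the suprabasal values of Itga9.

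The labels give Fvb/N replicates 1 and 2 another run code than replicates 3 and 4. Within replicates 1 and 2 the log2 changes were −4.92 for Itga3, −4.13 for Itgb1, −2.39 for Itga2, −1.32 for Itgav, −0.81 for Itgb8, −0.30 for Itgb6 and −0.02 for Itgb5. Within replicates 3 and 4 they were −3.49, −2.83, −2.13, −1.24, −1.02, 0.20 and 0.07 in the same order of genes. The 5 falls were called within each pair of replicates. Itgb8 in both pairs, and Itga2 in replicates 1 and 2, passed the filter only through basal libraries, which favours a fall. Itgb6 was called lower in replicates 1 and 2 (limma adjusted p = 0.00652) but not in replicates 3 and 4 (adjusted p = 0.525). The header of the expression table assigns the codes by fraction instead, and under that reading fraction and run cannot be told apart.

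**Figure D2:**
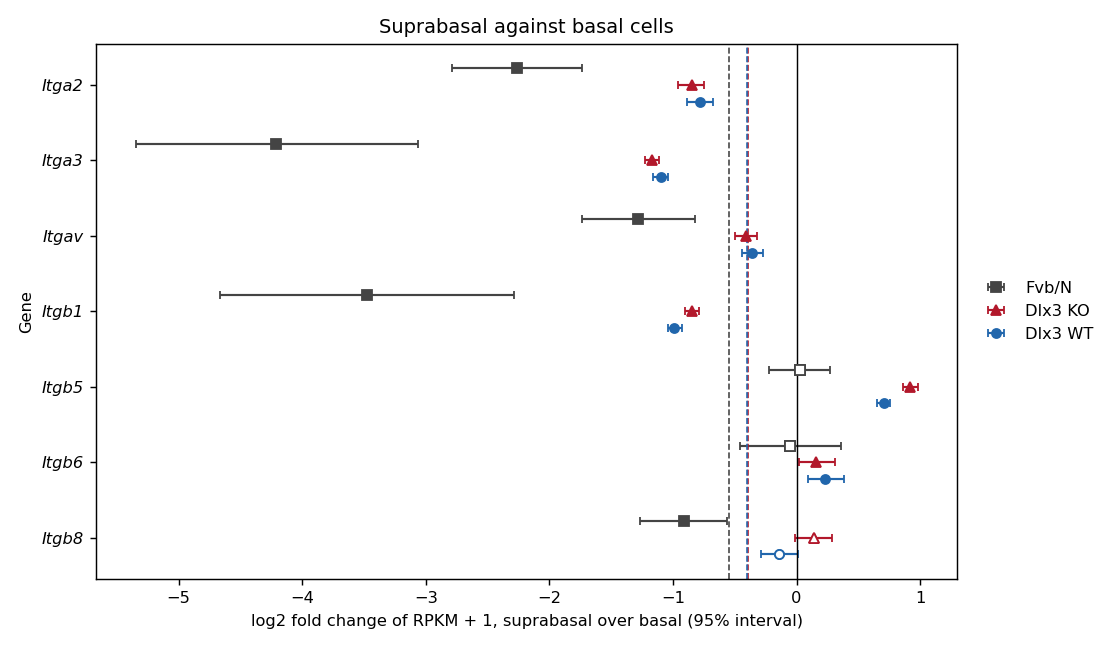
Log2 fold change of RPKM + 1, suprabasal over basal (x axis), for the 7 genes tested (y axis), in Fvb/N, KO and WT; bars are limma 95% intervals, filled symbols are called, open symbols are not, and dashed lines mark the median change of all genes in each comparison. Itga2, Itga3 and Itgb1 lie left of the dashed lines in all 3 comparisons, and Itgb5 lies right of them, at 0.03 in Fvb/N, 0.92 in KO and 0.71 in WT.

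In the Dlx3 table Itga2, Itga3 and Itgb1 also fell in suprabasal cells of both genotypes, while Itgb5 rose. In KO, 4 of the 7 genes tested were called lower and 2 higher; over all 12146 genes tested 89.6% were called, 69.7% lower and 19.9% higher. In WT, 4 were called lower and 2 higher; over all genes 89.6% were called, 70.4% lower and 19.2% higher. With that share of all genes called, being called says little, and direction and size are given for each gene. The median change of all genes was −0.39 in KO and −0.40 in WT, and rescaling moves both to 0.01.

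Itgb5 was at 96.1 and 93.9 RPKM in KO suprabasal libraries, against 49.5 and 49.8 RPKM in KO basal libraries. WT mice had 81.8 and 81.3 RPKM in suprabasal libraries, against 48.6 and 50.6 RPKM in basal libraries. Every suprabasal library lay above every basal library in both genotypes. Itgb5 rose by 0.92 in KO (SE 0.0257, limma adjusted p = 1.4e-09) and by 0.71 in WT (SE 0.0257, adjusted p = 6.73e-09), and by 1.39 and 1.19 after rescaling.

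Itga3 was at 31.8 and 30.6 RPKM in KO suprabasal libraries, against 72.0 and 71.3 RPKM in KO basal libraries. Its WT values were 30.4 and 29.9 RPKM in suprabasal libraries, against 65.5 and 66.2 RPKM in basal libraries. Suprabasal libraries of Itga3 lay well below basal ones, a fall of 1.17 in KO (SE 0.0263, adjusted p = 3.72e-10) and of 1.10 in WT (adjusted p = 5.14e-10). Its log2 change was −0.71 in KO and −0.63 in WT after rescaling, both called.

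Itgb1 was at 44.2 and 45.7 RPKM in KO suprabasal libraries, against 82.2 and 81.3 RPKM in KO basal libraries. WT cells had 42.0 and 42.2 RPKM in suprabasal libraries, against 85.2 and 83.7 RPKM in basal libraries. The fractions were far apart in both genotypes. Itgb1 fell by 0.85 in KO (SE 0.0246, adjusted p = 1.77e-09) and by 0.99 in WT (adjusted p = 6.66e-10), with rescaled changes of −0.38 and −0.51.

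Itga2 was at 2.79 and 3.02 RPKM in KO suprabasal libraries, against 6.18 and 5.93 RPKM in KO basal libraries. Its WT values lay at 3.04 and 3.01 RPKM in suprabasal libraries, against 5.90 and 5.96 RPKM in basal libraries. The collagen receptor chain thus fell without overlap, by 0.85 in KO (SE 0.0461, adjusted p = 9.56e-08) and by 0.78 in WT (adjusted p = 1.66e-07).

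Itgav was at 8.02 and 8.599 RPKM in KO suprabasal libraries, against 11.3 and 11.4 RPKM in KO basal libraries. Levels in WT were 8.88 and 8.80 RPKM in suprabasal libraries, against 11.8 and 11.4 RPKM in basal libraries. It was lower in every suprabasal library, by 0.41 in KO (adjusted p = 5.14e-06) and 0.36 in WT (adjusted p = 1.49e-05), which is close to the median of all genes. The call does not hold once each library is rescaled by its median ratio: the change of Itgav was then 0.02 in KO (adjusted p = 0.659; range over 11 alternatives 6.19e-06 to 0.659) and 0.09 in WT (adjusted p = 0.0595; range 1.79e-05 to 0.156).

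Itgb6 was at 1.61 and 1.47 RPKM in KO suprabasal libraries, against 1.202 and 1.34 RPKM in KO basal libraries. WT values lay at 1.66 and 1.73 RPKM in suprabasal libraries, against 1.36 and 1.22 RPKM in basal libraries. Both rises were small, 0.16 in KO (SE 0.0634, adjusted p = 0.0356) and 0.23 in WT (adjusted p = 0.00617). The KO call is lost without KO basal replicate 1 (0.12, adjusted p = 0.179), without KO suprabasal replicate 1 (0.12, adjusted p = 0.178) and without the filter (adjusted p = 0.0537; range over 11 alternatives 0.000149 to 0.179).

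Itgb8 was at 1.92 and 1.998 RPKM in KO suprabasal libraries, against 1.71 and 1.66 RPKM in KO basal libraries. In WT mice the values were 1.83 and 1.99 RPKM in suprabasal libraries, against 2.38 and 2.04 RPKM in basal libraries. Suprabasal values were the higher ones in KO and the lower ones in WT, with changes of 0.14 (95% interval −0.01 to 0.29, adjusted p = 0.0645) and −0.14 (95% interval −0.29 to 0.01, adjusted p = 0.0654). Neither passed the test, and after rescaling both were called, at 0.45 in KO and 0.19 in WT, so the sign in WT turns with the scaling. Itga9 was at 0.496 and 0.594 RPKM in KO suprabasal libraries, against 0.487 and 0.466 RPKM in KO basal libraries. In WT Itga9 was at 0.328 and 0.345 RPKM in suprabasal libraries, against 0.487 and 0.471 RPKM in basal libraries.

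The falls of Itga3, Itgb1 and Itga2 were larger in Fvb/N than in either Dlx3 genotype, and without rescaling Itgb5 was called in both Dlx3 genotypes and not in Fvb/N; these differences lie between tables normalized apart and were not tested. Beside them, the 7 basal markers summed to 7540 and 7625 RPKM in KO suprabasal libraries, against 16814 and 16932 RPKM in KO basal libraries, and to 8341 and 8430 RPKM in WT suprabasal libraries, against 16440 and 16848 RPKM in WT basal libraries. The corresponding range was 736 to 4055 RPKM in Fvb/N suprabasal libraries. Suprabasal libraries of the Dlx3 table thus kept a larger share of basal marker RNA than those of Fvb/N, and the part of this in the integrin values was not tested.

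Loss of Dlx3 went with small changes of these genes, of which a higher Itgb5 in suprabasal cells was the one that held in every alternative tried. In suprabasal cells 2 of the 7 genes tested were called, Itgb5 and Itgb1, both higher in KO; over all genes 37.3% were called, 21.6% higher and 15.7% lower. In basal cells 2 were called, Itga3 higher and Itgb8 lower; over all genes 7.21% were called, 4.23% higher and 2.98% lower. The median change of all genes was 0.01 in suprabasal and −0.02 in basal cells.

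The suprabasal levels of Itgb5 given above, 96.1 and 93.9 RPKM in KO and 81.8 and 81.3 RPKM in WT, did not overlap. Itgb5 rose by 0.22 in KO suprabasal cells (SE 0.0257, limma adjusted p = 0.000365), with changes of 0.11 to 0.23 over 11 alternatives. In basal cells the libraries overlapped and the change was 0.00 (95% interval −0.06 to 0.06, adjusted p = 0.986). The suprabasal rise was therefore larger than the basal change, a difference of 0.22 (SE 0.0363, interaction adjusted p = 0.00476), in a test in which 22.5% of all genes were called, 14.4% positive and 8.08% negative. For Itgb5 that difference is not called after quantile normalization (0.08, adjusted p = 0.146; range over 14 alternatives 0.00524 to 0.146).

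Itgb1 lay at 44.2 and 45.7 RPKM in KO and at 42.0 and 42.2 RPKM in WT suprabasal cells, and rose by 0.09 (SE 0.0246, adjusted p = 0.018). It was slightly lower in KO basal cells, −0.05 (adjusted p = 0.332), and the interaction was 0.14 (SE 0.0348, adjusted p = 0.0235). Both calls end with quantile normalization (0.01 and 0.03) and without the intensity trend; the suprabasal call also ends in 3 of 4 and the interaction in 6 of 8 fits that leave out a library. Hemidesmosome subunits moved the other way in suprabasal cells, where Itga6 fell by 0.11 (adjusted p = 0.00378) and Itgb4 fell by 0.10 (adjusted p = 0.0075) in KO.

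Itga3 rose by 0.12 in KO basal cells (SE 0.0263, adjusted p = 0.0271), where 72.0 and 71.3 RPKM in KO stood above 65.5 and 66.2 RPKM in WT. The call is lost in each of the 4 fits without a library, without the filter and without the intensity trend (range over 11 alternatives 0.0156 to 0.148). In suprabasal cells Itga3 was 0.05 higher in KO (95% interval −0.01 to 0.11, adjusted p = 0.185), and −0.01 after quantile normalization.

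Itgb8 fell by 0.25 in KO basal cells (SE 0.0644, adjusted p = 0.0491), with 1.71 and 1.66 RPKM in KO under 2.38 and 2.04 RPKM in WT. That call holds in 2 of 11 alternatives, whose changes span −0.37 to −0.18. The suprabasal change of Itgb8 was 0.03 (95% interval −0.12 to 0.17), and the interaction of 0.28 (SE 0.0911, adjusted p = 0.0567) did not pass. For Itga2, Itgav and Itgb6 no genotype change was called, and their 95% intervals lay between −0.17 and 0.13 for Itgav and Itga2 and between −0.23 and 0.13 for Itgb6. Itga9, untested, was at 0.496 and 0.594 RPKM in KO and 0.328 and 0.345 RPKM in WT suprabasal cells, without overlap, and at 0.487 and 0.466 RPKM in KO and 0.487 and 0.471 RPKM in WT basal cells.

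Markers of keratinocyte layers and of other cells also differed between KO and WT in both fractions, and their part in the integrin values was not tested. In suprabasal libraries the 6 suprabasal markers, all 6 higher in KO, summed to 52774 and 53058 RPKM in KO and 45747 and 46042 RPKM in WT. Of the 7 basal markers 6 were lower in KO, with sums of 7540 and 7625 RPKM in KO and 8341 and 8430 RPKM in WT. Counts in this fraction stand beside 21.6% of all genes higher and 15.7% lower. After quantile normalization 2 of the 6 suprabasal markers were called higher, with a median change of 0.05 in place of 0.23. Of the 7 basal markers 5 were then lower, beside 1935 of 12146 genes higher and 2346 lower. Fibroblast markers (Col1a1, Col1a2, Col3a1, Dcn, Lum and Pdgfra) summed to 60.7 and 62.5 RPKM in KO and 44.6 and 45.9 RPKM in WT, with 3 of 4 tested higher and Pdgfra under 1 RPKM in both. The 4 melanocyte markers, all higher, summed to 85.5 and 86.1 RPKM in KO and 54.9 and 55.0 RPKM in WT. Of the 4 Langerhans and myeloid markers 3 were higher, with sums of 115 and 116 RPKM in KO and 80.5 and 81.7 RPKM in WT. The 4 inner root sheath markers were lower, with sums of 6.89 and 7.11 RPKM in KO and 28.5 and 28.7 RPKM in WT, and Krt71, Krt25 and Krt27 were under 1 RPKM in KO. Krt71 and Krt25 passed the filter only through WT suprabasal libraries and Krt27 only through WT libraries, which favours lower values in KO. Markers also moved between KO and WT basal libraries, where Itga3 and Itgb8 were called. Over all genes 4.23% were called higher there and 2.98% lower. There the 6 suprabasal markers, all 6 higher in KO, summed to 5899 and 5981 RPKM in KO and 4011 and 4038 RPKM in WT. Of the 7 basal markers 1 was higher and 1 lower. Of the 4 melanocyte markers 3 were higher, with sums of 91.5 and 93.9 RPKM in KO and 81.1 RPKM in both WT libraries. The 3 red cell markers tested were lower, with sums over 4 of 31.8 and 32.3 RPKM in KO and 68.4 and 75.6 RPKM in WT.

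**Figure D3:**
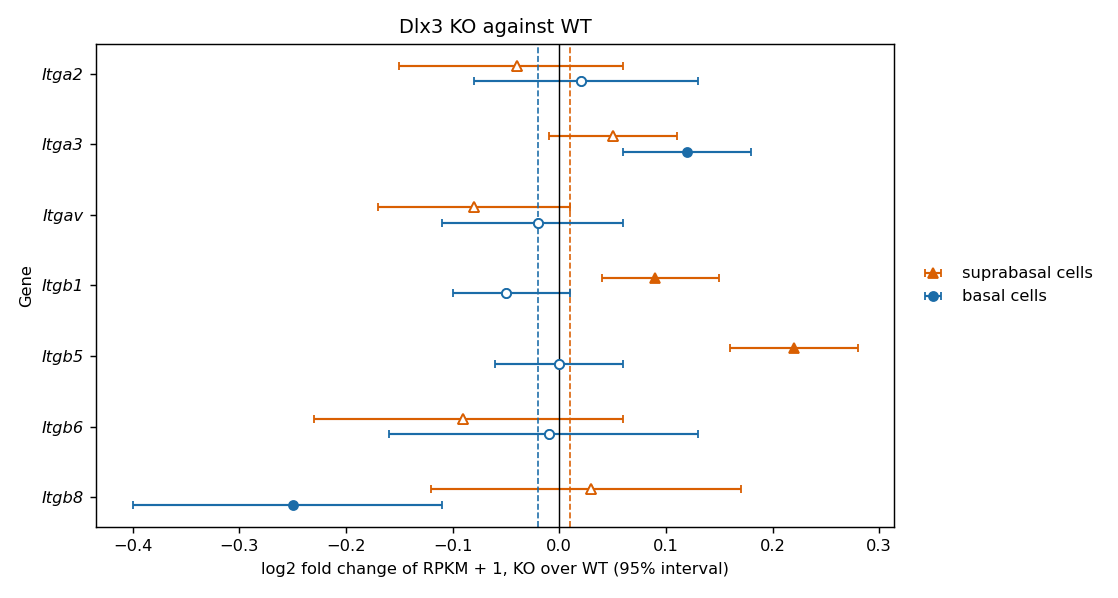
Log2 fold change of RPKM + 1, KO over WT (x axis), for the 7 genes tested (y axis) in suprabasal cells (orange triangles) and basal cells (blue circles); bars are limma 95% intervals, filled symbols are called, and dashed lines mark the median of all genes. Itgb5 stands at 0.22 in suprabasal and 0.00 in basal cells, and Itgb8 at −0.25 in basal cells is the largest change in size.

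In Fvb/N suprabasal cells Itgb5 (58.9 ± 2.79 RPKM, n = 4) led, apart from all others, followed by Itgb1, Itga3, Itgav and Itgb6, each of which overlapped the next. Itgb8 lay below Itgb6 without overlap, and Itgb8 overlapped Itga2, which overlapped Itga9. In Fvb/N basal cells Itga3 (70.0 ± 8.22 RPKM), Itgb1 (67.7 ± 15.7 RPKM) and Itgb5 (58.0 ± 5.21 RPKM) overlapped at the top. Itgav (10.997 ± 1.41 RPKM) and Itga2 (5.60 ± 0.9002 RPKM) followed, then Itgb8 (2.06 ± 0.623 RPKM) and Itgb6 (1.99 ± 0.321 RPKM), which overlapped, and Itga9 (0.337 ± 0.126 RPKM). In the Dlx3 table no neighbours overlapped in any of the 4 groups. The order there was Itgb5, Itgb1, Itga3, Itgav, Itga2, Itgb8, Itgb6 and Itga9 in KO and WT suprabasal cells. In KO and WT basal cells it was Itgb1, Itga3, Itgb5, Itgav, Itga2, Itgb8, Itgb6 and Itga9.

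Itgb5 therefore made up a larger share of the RNA of these genes in suprabasal cells. Its share of the summed RPKM of the 8 genes was 77.9 ± 14.7% (SD, n = 4) in Fvb/N suprabasal libraries and 27.1 ± 4.54% in basal libraries. In KO it was 51.4% and 50.5% in suprabasal libraries and 22.0% and 22.3% in basal libraries. In WT it was 48.1% and 48.0% in suprabasal libraries and 22.0% and 22.8% in basal libraries. The sum itself was 69.9 to 98.3 RPKM in Fvb/N suprabasal libraries against 197 to 247 RPKM in basal ones, 186 and 187 RPKM against 223 and 225 RPKM in KO, and 169 and 170.0 RPKM against 221 and 222 RPKM in WT.

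Ratios within a library do not depend on its scaling. The ratio of Itgb5 to Itgb1 was 28.8, 27.3, 2.99 and 10.2 in Fvb/N suprabasal libraries 1 to 4, against 1.25, 1.02, 0.711 and 0.637 in basal libraries. In KO it was 2.18 and 2.05 in suprabasal libraries, against 0.602 and 0.612 in basal libraries. In WT it was 1.95 and 1.93 in suprabasal libraries, against 0.571 and 0.604 in basal libraries. Itgb5 thus exceeded Itgb1 in every suprabasal library, and in basal libraries only in Fvb/N libraries 1 and 2, which also had the higher sums of suprabasal markers. Relative to Itgav, its alpha partner, Itgb5 was 8.50 to 19.7 times as high in Fvb/N suprabasal libraries and 4.42 to 6.48 times in basal libraries. This ratio was 11.98 and 10.9 in KO suprabasal libraries and 4.36 in both KO basal libraries, and 9.22 and 9.24 in WT suprabasal libraries against 4.13 and 4.44 in WT basal libraries. Itgb1 relative to the sum of Itga2, Itga3 and Itga9 was 1.36 to 1.94 in Fvb/N suprabasal libraries and 0.693 to 0.986 in basal libraries. The same ratio was 1.26 and 1.34 in KO suprabasal libraries against 1.04 and 1.05 in KO basal libraries, and 1.24 and 1.27 in WT suprabasal libraries against 1.18 and 1.15 in WT basal libraries. Ratios show unequal changes of the genes and were not tested.

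**Figure D4:**
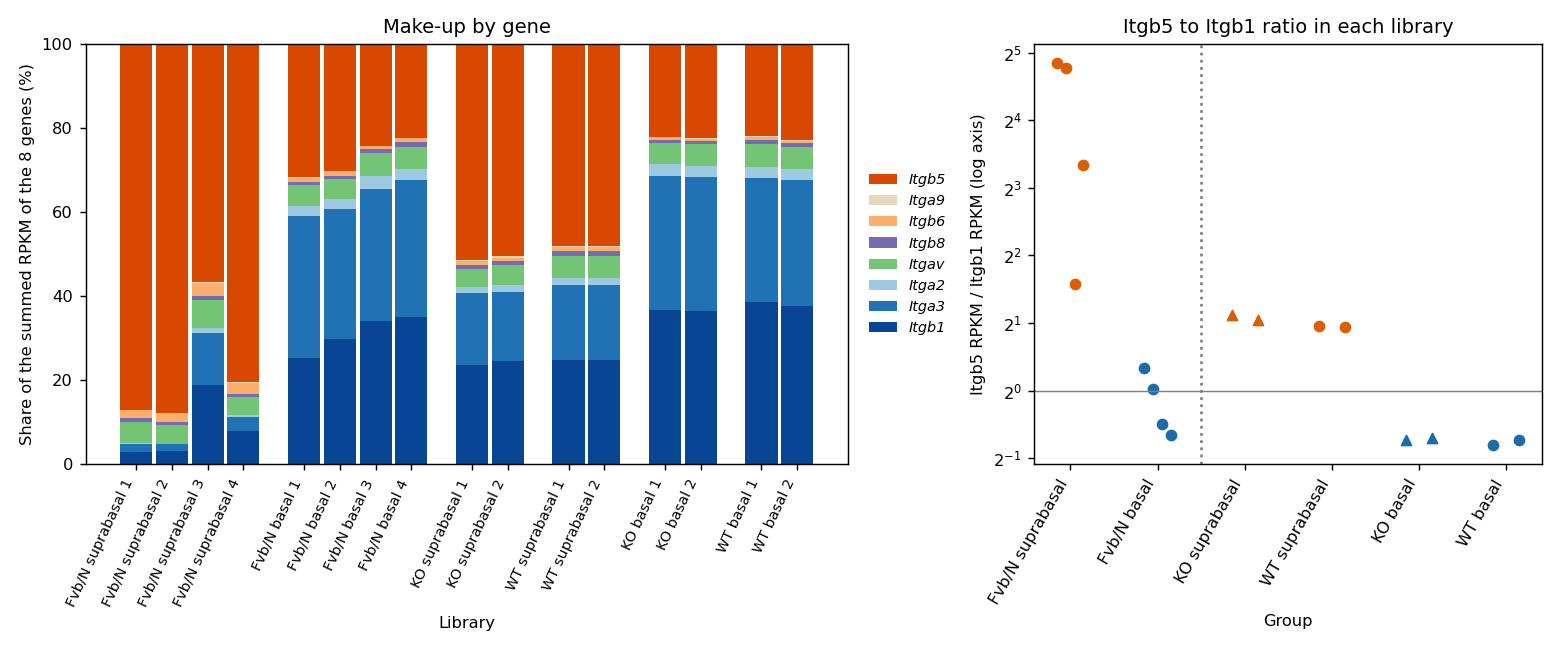
Left, share of each gene in the summed RPKM of the 8 genes (y axis, percent) in every library (x axis); right, ratio of Itgb5 to Itgb1 RPKM per library on a log axis, orange for suprabasal, blue for basal, triangles for KO. Itgb5 takes 56.5% to 87.8% in Fvb/N suprabasal libraries and 22.3% to 31.6% in basal ones, and the ratio is above 1 in all suprabasal libraries.

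Genes with the most similar pattern were taken over the 6 group means of log2(RPKM + 1), centred within each table, among the 11053 other named genes that passed both filters. Nearest to Itga3 were Smoc2 and Megf6, with root mean square differences of 0.038 and 0.039 log2 units, where the median over all candidates was 1.1. Nearest to Itgb1 were Tmem132a (0.038) and Gli1 (0.049). Nearest to Itga2 were Ripk3 (0.027) and Cdc7 (0.03). Nearest to Itgav were Kdm6b (0.008) and Ano6 (0.01), and nearest to Itgb8 were Fam129a (0.044) and Sfrp1 (0.045). Nearest to Itgb5 were Spns1 (0.037) and Stim1 (0.04), with a median over candidates of 0.568, and nearest to Itgb6 were Ipo4 (0.014) and Setd7 (0.019). Within the group, Itga3 and Itgb1 were each other's nearest (0.233), as were Itgb5 and Itgb6 (0.267) and Itgav and Itgb8 (0.203). The nearest of these genes to Itga2 was Itgav (0.335). Medians over all candidates were 0.875 for Itgb1, 0.532 for Itga2, 0.359 for Itgb6, 0.307 for Itgb8 and 0.288 for Itgav. The differences between Itgav and Itgb8 and between Itgb5 and Itgb6 thus lay not far under the medians of Itgav, Itgb8 and Itgb6.

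The other integrin subunits, 19 genes, were mostly low. In Fvb/N 7 were tested, of which 5 fell and 0 rose; the hemidesmosome chain Itgb4 fell by 4.29 and its partner Itga6 fell by 4.05, beside log2 changes of −4.21 for Itga3 and −3.48 for Itgb1. In KO 9 were tested, of which 3 fell and 1 rose. In WT 7 of 9 fell and 1 rose. The gene higher in both genotypes was Itgam, a chain of a myeloid integrin. Itgam passed the filter of the Dlx3 table only through suprabasal libraries, which favours a rise. Itgax passed that of Fvb/N only through basal libraries and Itgae that of the Dlx3 table only through WT basal libraries, which favours falls. Itga5, the alpha chain of the fibronectin receptor, fell by 1.74 in Fvb/N, by 0.41 in KO and by 0.52 in WT. After rescaling, 5 of the 7 fell and 1 rose in Fvb/N, 2 of 9 fell and 5 rose in KO, and 4 of 9 fell and 2 rose in WT.

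The counts of each gene list stand beside 60.6% of all genes lower and 13.4% higher in Fvb/N, 69.7% lower and 19.9% higher in KO, and 70.4% lower and 19.2% higher in WT. Rescaled counts stand beside other backgrounds. After rescaling, 4386 of 11531 genes were called lower and 3221 higher in Fvb/N. In KO 4609 of 12134 were then lower and 4960 higher, and in WT 4680 of 12134 lower and 5012 higher. These backgrounds apply to the other integrins as well. Of 20 genes for ligands of these receptors tested, 16 fell and 2 rose in Fvb/N suprabasal cells, with a median of −3.41 beside −0.55 over all genes; 15 fell and 4 rose in KO, with a median of −0.81 beside −0.39, and 17 fell and 3 rose in WT, with a median of −0.90 beside −0.40. After rescaling, 16 fell and 2 rose in Fvb/N, 15 fell and 5 rose in KO, and 14 fell and 4 rose in WT. Fn1, the matrix protein fibronectin, fell by 4.03 in Fvb/N, by 1.09 in KO and by 1.56 in WT. Tnc, the Itga9 ligand tenascin-C, fell by 1.23 in KO and by 1.10 in WT. Between KO and WT suprabasal cells 12 ligand genes rose and 3 fell, beside 21.6% of all genes higher and 15.7% lower. After quantile normalization 10 rose and 4 fell, beside 1935 of 12146 genes higher and 2346 lower. The rises were led by the fibrillar collagens: Col3a1 averaged 14.1 RPKM in KO and 5.86 RPKM in WT, a rise of 1.14 (adjusted p = 1.93e-06). Col3a1, Col1a1 and Col1a2 are also fibroblast markers.

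Genes of TGF-beta and its activation, where Itgb6 and Itgb8 act, gave 12 falls among 12 tested in Fvb/N, 9 falls and 1 rise among 13 in KO, and 12 falls and 1 rise among 13 in WT. After rescaling the falls and rises were 11 and 0 in Fvb/N, 5 and 5 in KO, and 8 and 2 in WT. Tgfb1, a TGF-beta ligand, fell by 2.61 in Fvb/N and Ltbp4, which binds latent TGF-beta in the matrix, fell by 3.50 there, by 0.86 in KO and by 0.73 in WT. In KO against WT suprabasal cells 5 rose and 3 fell, beside 21.6% of all genes higher and 15.7% lower. Tgfb1 stood at 0.34 (limma adjusted p = 0.000926) and Tgfb3 at 0.32 (adjusted p = 0.000148). Of 25 genes that act at the integrin tail, 21 fell in Fvb/N, 22 in KO and 21 in WT, and after rescaling 17, 14 and 18 fell while 2, 7 and 6 rose. Fermt1, the kindlin of keratinocytes, fell by 2.72 in Fvb/N, by 1.23 in KO and by 1.18 in WT, and the actin crosslinker Actn1 by 2.42, 0.94 and 0.95. Of 9 membrane partners, 5 fell and 0 rose in Fvb/N, 4 fell and 4 rose in KO, and 5 fell and 2 rose in WT; after rescaling there were 4 falls and 2 rises in Fvb/N, 2 falls and 7 rises in KO, and 2 falls and 6 rises in WT. Cd151, a tetraspanin that binds alpha3beta1, fell by 2.31 in Fvb/N, by 0.62 in KO and by 0.64 in WT. In KO against WT suprabasal cells 7 of these 9 partners rose and 0 fell, beside 21.6% of all genes higher and 15.7% lower. After quantile normalization 3 of the partners rose and 1 fell, beside 1935 of 12146 genes higher and 2346 lower. The median change of the partners was then 0.04 in place of 0.18. Cav1 rose by 0.19 (adjusted p = 0.00108) and Cd82 rose by 0.28 (adjusted p = 0.00161). In basal cells the same comparison called 1 of the 25 tail genes, Tns4, a tensin, higher by 0.44 (adjusted p = 0.00043), and 0 of the 9 partners. Over all genes 4.23% were called higher there and 2.98% lower, so these counts stand near the background.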

How the data were processed

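Total RNA of 16 libraries was sequenced. The authors mapped reads to mm10 and calculated RPKM in Partek, per the file headers; TopHat2 2.1.1 and bcl2fastq 2.20.0.422 are named in the submitters' processing notes. The gene annotation and the handling of multiply mapped reads are not given in the sources used here. The deposited tables hold no counts, and 65.4% to 72.5% of low values were whole reads within 0.08 reads, so read numbers are approximate and no count model was run. The authors' deposited comparison tables give a linear ratio of group means, which is quoted only where named.

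RPKM plus 1 was taken to log2. Testing was limited to genes with 1 RPKM or more in at least 4 Fvb/N or 2 Dlx3 libraries. Groups were compared with limma 3.58.1 in R 4.3.3, using the intensity trend and all groups of a table in 1 fit, and p-values were adjusted by Benjamini-Hochberg over all genes of the table. SE is limma's standard error and ± the standard deviation between libraries. The fit was tested on simulated data. The members and gene lists were chosen with earlier results of these data known. All 8 genes are given in every comparison; of the other lists, up to 4 members with the smallest p per comparison could be named. Genes with similar patterns were the 2 with the smallest root mean square difference. Alternatives were a pseudocount of 0.1, no filter, rescaling by the median ratio, quantile normalization, no trend, a replicate block, single libraries left out, run code as a term and within replicate pairs (Fvb/N), and the fit on 2 compared groups (Dlx3). Figures used Python 3.11.15, pandas 2.3.3, numpy 2.4.6 and matplotlib 3.10.9.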

Additional observations from a re-analysis of the deposited data

Results flagged for a closer look

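Fvb/N suprabasal library 3 lay far above the other libraries of its group for 3 genes, by a gap to the nearest library larger than Dixon's 95% critical value allows for 4 samples. Itga2 was at 1.27 RPKM there and at 0.106 to 0.245 RPKM in suprabasal libraries 1, 2 and 4. Itga3 was at 12.1 RPKM there and at 1.06 to 2.47 RPKM in the other libraries. Itgav was at 6.54 RPKM there and at 3.11 to 3.53 RPKM in the others. Chance gives such a flag in about 1 of 20 independent groups, and 3 of 16 groups were flagged. The 16 groups are genes measured in the same libraries, and all 3 flags fall on library 3. The groups are therefore not independent, and the number of flags cannot be set against chance. The same library had 4055 RPKM summed over 7 basal keratinocyte markers, against 736 to 1458 RPKM in the other suprabasal libraries; the part of this in the flagged values was not tested.

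The fraction change of 2 genes differed between the Dlx3 genotypes by the interaction test. For Itgb5 the suprabasal to basal change was 0.92 in KO and 0.71 in WT, a difference of 0.22 log2 units. For Itgb1 it was −0.85 in KO and −0.99 in WT, a difference of 0.14 log2 units.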

How the results depend on the processing

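Of 528 gene values under alternative settings, 463 kept direction and side of the threshold. The falls of Itga2, Itga3 and Itgb1 in all 3 suprabasal to basal comparisons, the rise of Itgb5 in KO and WT fractions and its rise in KO suprabasal cells kept both in every alternative tried. Among KO to WT differences in basal cells, the 2 calls became 1 with a pseudocount of 0.1, rescaling, quantile normalization, no trend, the replicate block or 2 compared groups, and 0 without the filter, and 0 to 1 without single libraries. In suprabasal cells 2 calls became 1 with quantile normalization or no trend, and 1 to 2 without single libraries. For the interaction 2 became 1 with quantile normalization, where Itga3 (−0.15, limma adjusted p = 0.0303) was called in place of Itgb1 and Itgb5, and 1 to 3 without single libraries. Signs turned for Fvb/N Itgb6 (0.30 rescaled, 0.68 quantile, 0.20 within replicates 3 and 4) and Itgb5 (−0.02 within replicates 1 and 2), for WT Itgav (0.09) and Itgb8 (0.19) and KO Itgav (0.02) rescaled, for WT Itgb8 (0.03) and KO to WT suprabasal Itga3 (−0.01) after quantile normalization. Without single libraries, uncalled changes spanned 0: Fvb/N Itgb5 −0.02 to 0.08 and Itgb6 −0.22 to 0.04; KO to WT basal Itga2 0.00 to 0.05, Itgb5 −0.03 to 0.03 and Itgb6 −0.06 to 0.03; suprabasal Itga2 −0.09 to 0.00 and Itgb8 −0.01 to 0.07. The causes were not tested, except that rescaling and quantile normalization shift all genes by construction. Leaving out Fvb/N suprabasal libraries 3 and 4 together, an alternative chosen after seeing the data, gave the same 5 calls, with changes of −5.02 for Itga3, −4.40 for Itgb1 and 0.08 for Itgb5. Itgb8 has no Fvb/N value without a basal library, since the filter then removes it. In every Fvb/N fit without suprabasal library 3 that used the filter, Itga2 passed it only through basal libraries.

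Over all genes, calls for KO to WT in basal cells number 876, or 463 to 543 without single libraries, and for the interaction 2737, or 1600 to 2311. The share of higher calls moves with scaling: 18.1% as reported, 42.3% rescaled and 49.5% after quantile normalization in Fvb/N; 22.2%, 51.8% and 35.4% in KO; 21.5%, 51.7% and 36.9% in WT; 58.7%, 73.2% and 69.5% for KO to WT in basal cells; 57.8%, 61.9% and 45.2% in suprabasal cells; and 64.1%, 59.8% and 43.7% for the interaction. Without the filter Itga9 changed by −0.21 in Fvb/N (limma adjusted p = 0.077), 0.06 in KO (0.162), −0.15 in WT (0.0118) and 0.21 between KO and WT suprabasal cells (0.0137). Same-numbered Fvb/N libraries deviated together with correlations of 0.521, 0.569, 0.566 and 0.097, and Dlx3 libraries with −0.142 to 0.186. Differently numbered Fvb/N libraries ranged from −0.594 to 0.601, the highest between basal 2 and suprabasal 1, which share a run code in the labels. These correlations cannot separate pairing by number from a shared run, and the main fit did not pair libraries. With the replicate block 8827 genes were called in Fvb/N, against 8584 without it. Of the genes described here 1 lost its call, Itgb8 in KO against WT basal cells (−0.25, limma adjusted p = 0.0701). Depth limits Itga9, Itgb6, Itgb8 and suprabasal Itga2 most, at about 23 reads for the lowest value of Itga9, 35 for Itga2, 311 for Itgb6 and 266 for Itgb8.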

Other observations

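Among integrin genes of leukocytes, Itgax, of dendritic cells, fell by 1.73 in Fvb/N suprabasal cells (limma adjusted p = 0.00028). Its means were 0.348 RPKM in suprabasal and 3.54 RPKM in basal cells. Itgax passed the Fvb/N filter only through the basal libraries, which favours a call lower in suprabasal cells. Beside it, the Langerhans and myeloid markers Cd207 and Cd74 averaged 0.348 and 12.8 RPKM in Fvb/N suprabasal and 3.37 and 132 RPKM in basal cells. In KO, Itgax was at 1.16 and 1.05 RPKM in suprabasal libraries and 1.08 and 1.15 RPKM in basal libraries, with overlap. WT had 0.849 and 0.83 RPKM of Itgax in suprabasal libraries and 1.035 and 1.064 RPKM in basal libraries, lower without overlap. Itgam, of myeloid cells, averaged 2.15 RPKM in Fvb/N suprabasal and 2.38 RPKM in basal cells (log2 change −0.10, adjusted p = 0.498; 0.63 after quantile normalization). Itgae, the alpha chain by which T cells bind E-cadherin, fell by 0.61 in KO basal cells (limma adjusted p = 0.000531). Its means there were 0.554 RPKM in KO and 1.38 RPKM in WT. Itgae passed the filter only through the WT basal libraries, which favours a lower value in KO, so its p-value is not independent support for a fall. Beside Itgae, the 3 T cell markers Cd3e, Cd3g and Cd3d summed to 2.12 RPKM in both KO basal libraries and to 4.87 and 5.14 RPKM in WT basal libraries. The part of these markers in the values of Itgax and Itgae was not tested.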
